A study of Mus musculus with 6 samples.

Results

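The 9 genes described here encode the enzymes that make serine from a glycolytic intermediate and those that pass its side-chain carbon through folate. They are Phgdh, Psat1 and Psph of serine synthesis, Shmt2, Mthfd2, Mthfd1l and Aldh1l2 of the mitochondrial folate pathway, and Shmt1 and Mthfd1 of the cytosolic folate pathway. They were taken by gene symbol from a table of 47069 mouse genes, and all 9 passed the filter on low counts, among 14165 genes that did. The set was chosen by measured values, since it was proposed with the fold changes of PSB-KD107 against vehicle known from these same 6 libraries. Their differences between the groups are therefore given as a description, with no p-value and with nothing read from how many passed a threshold, and no library was left that the choice had not used.

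The cells were myogenic cells sorted from the muscle of mdx mice and cultured as primary myoblasts. The methods describe a medium with serum and FGF2 for growth and a low-serum medium for differentiation. Their section on RNA sequencing names neither. All 6 libraries carry the mdx mutation of the dystrophin gene Dmd, which makes these mice a model of Duchenne muscular dystrophy. The methods give an age of 10 weeks for the male mdx mice injected in vivo. For the mice that gave these cells, no age is stated separately. One group received vehicle and the other 10 μM PSB-KD107, a synthetic agonist of the receptor Gpr18. The sample records give a treatment of 2 days whereas the methods of the study give an overnight treatment, and the treatment field of the records spells the compound PSB-KD-1. Each group had 3 libraries, numbered 1, 2 and 4 as in the count table. The methods say that the cells came from 3 different mice, but the records tie no library to a mouse. Whether the 2 groups share mice is therefore not known, and p-values measure the spread between these libraries.

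Serine synthesis starts from the glycolytic intermediate 3-phosphoglycerate. Phgdh oxidizes it in the step that commits it to the pathway, Psat1 transfers an amino group to the product, and Psph removes the phosphate to give serine. Serine hydroxymethyltransferase then splits serine into glycine and a carbon unit bound to tetrahydrofolate, with Shmt2 in the mitochondrion and Shmt1 mainly in the cytosol. In the mitochondrion, Mthfd2 oxidizes the folate-bound unit, and Mthfd1l releases it as formate for export, or Aldh1l2 oxidizes it to carbon dioxide with production of NADPH. In the cytosol, Mthfd1 is a single trifunctional enzyme that takes up formate and interconverts the folates used for purine, thymidylate and methionine synthesis. Atf4, the transcription factor of the integrated stress response, is a known activator of several of these genes.

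In GENCODE M21, on GRCm38, the serine synthesis genes were Phgdh (ENSMUSG00000053398) at chr3:98313170-98339990 (minus strand), Psat1 (ENSMUSG00000024640) at chr19:15904678-15947337 (minus strand) and Psph (ENSMUSG00000029446) at chr5:129765558-129787449 (minus strand). The mitochondrial folate genes were Shmt2 (ENSMUSG00000025403) at chr10:127517123-127522444 (minus strand), Mthfd2 (ENSMUSG00000005667) at chr6:83305691-83325908 (minus strand), Mthfd1l (ENSMUSG00000040675) at chr10:3973118-4167081 (plus strand) and Aldh1l2 (ENSMUSG00000020256) at chr10:83487450-83534140 (minus strand). The cytosolic folate genes were Shmt1 (ENSMUSG00000020534) at chr11:60788104-60811718 (minus strand) and Mthfd1 (ENSMUSG00000021048) at chr12:76255298-76319803 (plus strand). Of the mitochondrial genes, 3 lie on chromosome 10.

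Libraries held between 30917613 and 48756794 counts. PSB-KD107 library 4 stood apart, with 492 genes at least 2-fold above and 181 at least 2-fold below all 5 other libraries, against at most 166 and 56 genes for any other library. Its Dmd level was 1.73 CPM (counts scaled to the TMM-normalised size of each library), compared with 16.2 to 20.1 CPM in the 5 others, and the values that follow are given with and without it where it bears on them. The summed level of 12 proliferation markers was 344, 125 and 102 CPM in vehicle libraries 1, 2 and 4, and 205, 118 and 210 CPM in the PSB-KD107 libraries, so that vehicle library 1 was the highest. With PSB-KD107, 3 of these 12 had a higher and 9 a lower estimate, a list median of -0.36 on the log2 scale, and 0 reached an unadjusted p under 0.05 in edgeR. The satellite cell marker Pax7 was detected at 49.9 to 68.8 CPM with vehicle and at 26.8 to 35.1 CPM with PSB-KD107. Myog and Myh3, which mark differentiating muscle, were also abundant, with Myh3 at 17160 to 18260 CPM with vehicle and 11840 to 14590 CPM with PSB-KD107. The libraries therefore hold differentiating as well as satellite cell transcripts, and in bulk RNA a change in the share of a cell type and a change of RNA per cell cannot be told apart. Summed over their lists, 7 markers of differentiated muscle lay at 30080 to 34570 CPM with vehicle and 24510 to 29830 CPM with PSB-KD107, and 8 myoblast markers at 5907 to 6393 and 5844 to 6015 CPM. Myh3 alone gave a large part of the first sum. Of the 7 markers, 4 had a higher and 3 a lower estimate with PSB-KD107. Their median log2 fold change was 0.007, or -0.37 without library 4. At an unadjusted p under 0.05 in edgeR, 3 of the 7 were lower and 0 higher, beside 2.93% and 6.47% of all genes. For 3 of the 7, all PSB-KD107 libraries lay below all vehicle libraries, beside 6.59% of all genes. DESeq2 called 2 of the 7 lower after adjustment, beside 133 of all 14165 genes. Of the 8 myoblast markers, 2 had a higher and 6 a lower estimate, with a median of -0.26. Among these 8, 1 was lower and 0 higher at an unadjusted p under 0.05 in edgeR, and DESeq2 called 1 lower after adjustment. Sums were low for 5 fibro-adipogenic markers (1.55 to 5.89 CPM with vehicle and 1.70 to 10.6 CPM with PSB-KD107), for 4 endothelial markers (0.310 to 1.40 and 0.385 to 1.13 CPM) and for 6 haematopoietic markers (2.39 to 4.90 and 0.688 to 6.58 CPM). Of single markers, Lum and Adgre1 were at 0 in every library, and Ly6a was at 8.36 CPM in PSB-KD107 library 4. The 3 fibro-adipogenic markers that were tested all had a higher estimate, with 0 at an unadjusted p under 0.05 in edgeR. The part of these differences in the values below was not tested.

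All 3 genes of serine synthesis had a higher mean with PSB-KD107, and 2 of them were higher in every PSB-KD107 library than in any vehicle library. Phgdh measured 72.1, 60.4 and 45.7 CPM in vehicle libraries 1, 2 and 4, and 146.3, 131.6 and 127.3 CPM in the PSB-KD107 libraries. The groups did not overlap, and the treated libraries differed less among themselves than the vehicle libraries did. The mean went from 59.4 ± 13.3 to 135.1 ± 9.95 CPM (SD, n = 3), a 2.27-fold difference, with a log2 fold change of 1.19 ± 0.18 (SE, edgeR) or 1.23 without PSB-KD107 library 4. Among all tested genes, 4.08% had a larger log2 fold change. Psph was expressed at a far lower level, 9.98, 9.48 and 10.3 CPM with vehicle, and reached 35.2, 28.7 and 24.0 CPM with PSB-KD107. Its vehicle libraries were nearly identical, and every PSB-KD107 library lay at more than 2-fold their mean. The mean went from 9.93 ± 0.427 to 29.3 ± 5.60 CPM, 2.95-fold, and the log2 fold change was 1.56 ± 0.17. Exons of Psph overlap those of the chaperonin subunit gene Cct6a on the opposite strand, which had 75460 counts over the 6 libraries, and whether counting used strand is not given in the sources used here.

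Psat1, the transaminase between them, followed another pattern. It measured 199.7, 163.3 and 170.7 CPM with vehicle and 274.1, 232.1 and 125.0 CPM with PSB-KD107. PSB-KD107 libraries 1 and 2 lay above every vehicle library, while library 4 lay below all of them. The mean was 177.9 ± 19.2 CPM with vehicle and 210.4 ± 76.8 CPM with PSB-KD107, and the log2 fold change of 0.24 ± 0.29 went to 0.51 without library 4 and to -0.013 without PSB-KD107 library 1. The difference of the middle enzyme was thus smaller than its spread, unlike those of the first and last enzymes.

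Shmt2 and Mthfd2, which run the first 2 mitochondrial folate reactions, had higher values in all PSB-KD107 libraries. Shmt2 measured 58.4, 60.9 and 64.1 CPM with vehicle, and 118.7, 94.8 and 75.4 CPM with PSB-KD107. The groups did not overlap, with library 4 the nearest to the vehicle values. The mean went from 61.1 ± 2.85 to 96.3 ± 21.7 CPM, with a log2 fold change of 0.66 ± 0.17, or 0.80 without library 4. Mthfd2 measured 51.7, 88.4 and 78.3 CPM with vehicle and 155.6, 188.1 and 94.2 CPM with PSB-KD107. Library 4 was again the lowest of its group and close to the highest vehicle library. The mean went from 72.8 ± 19.0 to 146.0 ± 47.7 CPM, with a log2 fold change of 1.00 ± 0.31, or 1.24 without library 4.

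The genes of the enzymes that take the carbon unit out of the mitochondrial pool, Mthfd1l and Aldh1l2, had larger log2 fold changes than those of Shmt2 and Mthfd2, a difference between genes that was not tested, and library 4 was not their lowest treated library. Mthfd1l, which produces formate, measured 19.9, 11.7 and 12.3 CPM with vehicle and 51.4, 25.4 and 50.5 CPM with PSB-KD107. Here library 2, not library 4, was the lowest treated library, and it still lay above every vehicle library. The mean went from 14.6 ± 4.58 to 42.4 ± 14.7 CPM, 2.90-fold, with a log2 fold change of 1.54 ± 0.35, or 1.39 without library 4. Aldh1l2, the mitochondrial formyltetrahydrofolate dehydrogenase, measured 20.0, 14.3 and 9.0 CPM with vehicle, and 78.7, 42.2 and 53.5 CPM with PSB-KD107. It had the largest difference of the 9 genes in these data, 4.03-fold between means of 14.4 ± 5.48 and 58.1 ± 18.7 CPM, with a log2 fold change of 2.01 ± 0.36 that was exceeded by 1.31% of all tested genes. Exons of Aldh1l2 overlap those of D10Wsu102e on the opposite strand, which had 5549 counts over the 6 libraries.

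The genes of the cytosolic enzymes did not separate the groups. Mthfd1 measured 51.2, 49.3 and 50.8 CPM with vehicle and 59.8, 51.7 and 32.4 CPM with PSB-KD107. PSB-KD107 libraries 1 and 2 lay slightly above the vehicle libraries and library 4 below all of them, with means of 50.4 ± 0.982 and 48.0 ± 14.1 CPM. The log2 fold change was -0.07 ± 0.22, and 0.14 without library 4, so that its sign rests on that library. Shmt1 was the least expressed of the 9 genes, at 5.74, 3.52 and 3.60 CPM with vehicle and 8.39, 4.17 and 4.98 CPM with PSB-KD107. Vehicle library 1 exceeded 2 of the treated libraries, and the log2 fold change of 0.45 ± 0.36 went to 0.077 without PSB-KD107 library 1 and to 0.71 without vehicle library 1. These Shmt1 values rest on 116 to 422 counts per library, and its exons overlap those of Smcr8 on the opposite strand, which had 22519 counts.

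**Figure D1:**
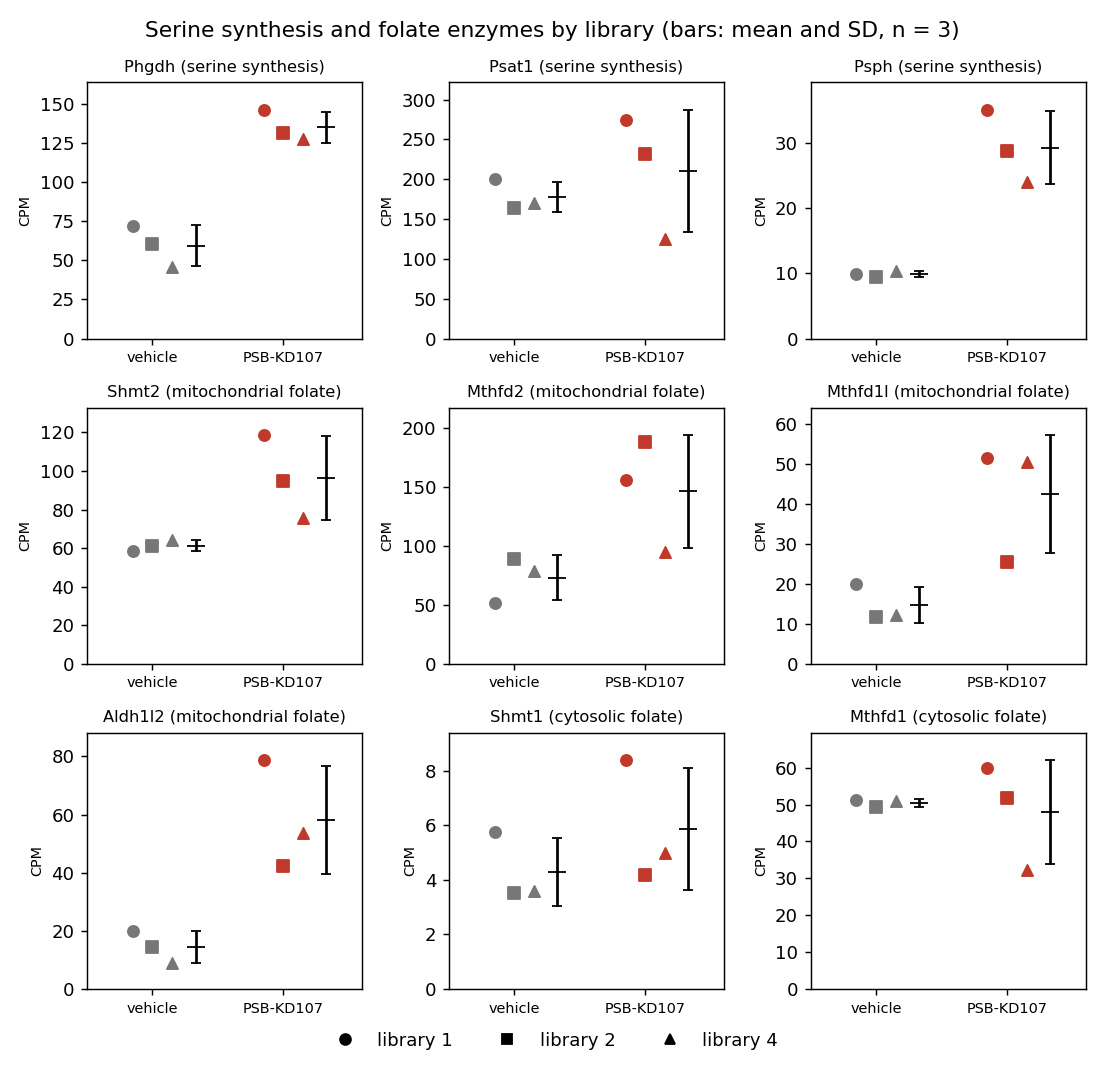
Level of each of the 9 genes in CPM (linear axis from 0) in the 3 vehicle and the 3 PSB-KD107 libraries, with 1 point per library, shaped by its number, and black bars for the mean ± SD. Treated and vehicle points are apart for 6 genes, overlap for Psat1, Shmt1 and Mthfd1, and PSB-KD107 library 4 lies below every vehicle library for Psat1 and Mthfd1.

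Altogether 6 of the 9 genes, Phgdh, Psph, Shmt2, Mthfd2, Mthfd1l and Aldh1l2, had all PSB-KD107 libraries above all vehicle libraries, as did 9.2% of all tested genes. Tested by quasi-likelihood in edgeR, 0 of the 9 passed an adjusted p of 0.05, as did 0.0% of all genes, and the same 6 were higher at an unadjusted p under 0.05, as were 6.47% of all genes. DESeq2 called 5 of the 9 as higher, against 2.46% of all genes. Because the set was chosen on this contrast, nothing is read from these counts. The median log2 fold change was 1.19 over the 3 serine synthesis genes, 1.27 over the 4 mitochondrial folate genes, 0.19 over the 2 cytosolic ones and -0.0007 over all tested genes. Without PSB-KD107 library 4 the medians were 1.23, 1.31, 0.35 and -0.01, and without library 1 the cytosolic median was -0.10.

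**Figure D2:**
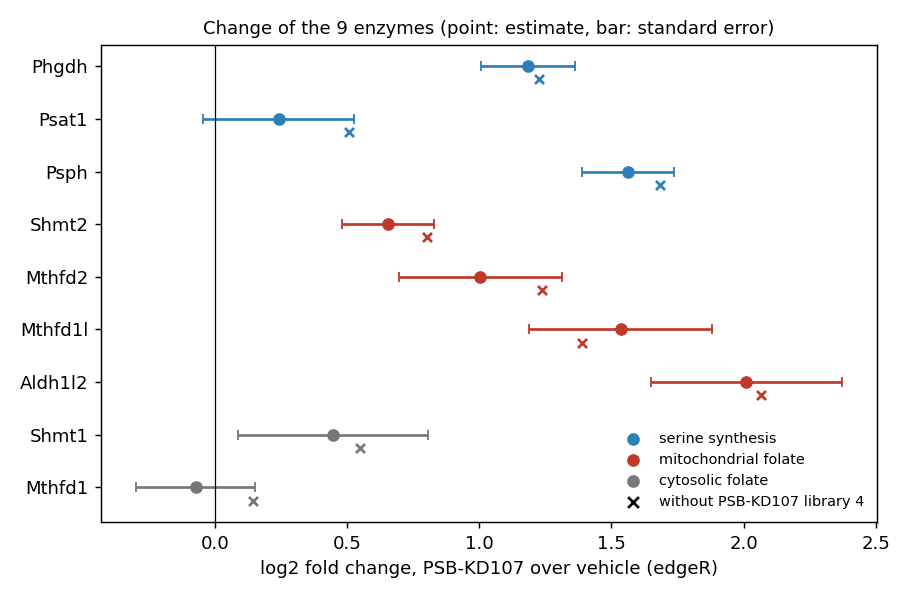
Log2 fold change of PSB-KD107 against vehicle for each of the 9 genes (points, edgeR, bars ± SE), with the value without PSB-KD107 library 4 as a cross. Aldh1l2 is highest at 2.01 and Mthfd1 lowest at -0.07, and leaving library 4 out moves Psat1 from 0.24 to 0.51.

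The promoters of the pairs that run the same reactions in the 2 compartments, Shmt2 and Shmt1 and Mthfd2 and Mthfd1, are shown so that the compartments can be compared. The RefSeq table of promoters, on GRCm38.p6, held an entry for 8 of the 9 genes and none for Aldh1l2. Each window of 300 bases spans a transcription start of the RefSeq annotation, lies mostly before it, is written 5′ to 3′ on the strand of the gene, and has its CCAAT boxes, on either strand, in capitals. The windows are those of Shmt2 on chr10:127522395-127522694 (minus strand), Shmt1 on chr11:60811216-60811515 (minus strand), Mthfd2 on chr6:83317555-83317854 (minus strand) and Mthfd1 on chr12:76254982-76255281 (plus strand). The windows of Shmt1, Mthfd2 and Mthfd1 do not include the outer 5′ ends of these genes in GENCODE M21, given above, whereas that of Shmt2 does.
Shmt2: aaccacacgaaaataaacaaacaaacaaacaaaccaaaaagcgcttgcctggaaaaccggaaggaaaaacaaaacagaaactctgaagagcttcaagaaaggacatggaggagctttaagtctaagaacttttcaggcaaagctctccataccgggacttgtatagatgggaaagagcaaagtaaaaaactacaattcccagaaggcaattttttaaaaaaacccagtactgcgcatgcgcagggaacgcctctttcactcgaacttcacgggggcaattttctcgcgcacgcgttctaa
Shmt1: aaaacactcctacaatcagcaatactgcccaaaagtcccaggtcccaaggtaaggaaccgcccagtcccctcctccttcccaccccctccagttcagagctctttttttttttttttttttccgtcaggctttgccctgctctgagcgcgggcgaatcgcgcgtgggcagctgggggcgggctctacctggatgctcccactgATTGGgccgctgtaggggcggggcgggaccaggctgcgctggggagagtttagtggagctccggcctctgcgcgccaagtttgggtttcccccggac
Mthfd2: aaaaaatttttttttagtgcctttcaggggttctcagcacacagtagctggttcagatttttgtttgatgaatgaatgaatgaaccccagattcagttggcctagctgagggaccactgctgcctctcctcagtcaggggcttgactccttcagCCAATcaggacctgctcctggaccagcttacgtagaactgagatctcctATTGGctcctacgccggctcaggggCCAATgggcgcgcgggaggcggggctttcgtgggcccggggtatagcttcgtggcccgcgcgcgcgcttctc
Mthfd1: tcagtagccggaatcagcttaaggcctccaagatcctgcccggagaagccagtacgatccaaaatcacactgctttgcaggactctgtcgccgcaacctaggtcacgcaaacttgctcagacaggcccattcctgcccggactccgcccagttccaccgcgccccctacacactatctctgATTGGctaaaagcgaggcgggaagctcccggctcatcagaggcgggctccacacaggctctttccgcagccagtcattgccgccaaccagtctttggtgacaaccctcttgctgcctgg

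Both strands were searched for 4 motifs, none of which contains another. CCAAT, read by the factor NF-Y, occurred in the windows of 6 of the 8 genes, and in 37.4% of all 32851 promoter windows. Mthfd2 and Psat1 held 3 each, Phgdh and Psph 2 each, Shmt1 and Mthfd1 1 each, and Shmt2 and Mthfd1l none. The element TGATGNAA, a form of the site bound by Atf4 with C/EBP partners, was found in 0 of the 9 windows of these 8 genes (Psat1 had 2) and in 3.97% of all windows. The E-box CACGTG (7.15% of all windows) and the cyclic AMP element TGACGTCA (1.79%) were also found in 0 of the 9. TGATGNAA was present for 4 of the 14 genes with a window (16 windows) among known regulators and Atf4 targets, namely Atf3, Trib3, Asns and Chac1. It was also present for the serine transporter gene Slc1a4 and for Prps1 of the purine synthesis list, whose log2 fold change was -0.013. An absent match says only that these letters are not in these 300 bases.

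To compare levels between genes, CPM values were divided by the joined exon length in kilobases (FPKM). With vehicle, Psat1 was the most abundant at 41.8 ± 4.51 FPKM, followed by Phgdh at 23.9 ± 5.33, Mthfd2 at 20.9 ± 5.44 and Shmt2 at 19.7 ± 0.918 FPKM. The libraries of these last 3 genes overlapped, so that their order is not separated by the spread. Mthfd1 followed at 11.4 ± 0.221 and Mthfd1l at 3.30 ± 1.03 FPKM, each apart from its neighbours, and Psph at 2.29, Aldh1l2 at 1.92 and Shmt1 at 1.10 FPKM again overlapped in turn. With PSB-KD107 the order at the top was Phgdh at 54.3 ± 4.0, Psat1 at 49.5 ± 18.1, Mthfd2 at 41.9 ± 13.7 and Shmt2 at 30.97 ± 6.98 FPKM. Mthfd1l (9.57 ± 3.32 FPKM) and Aldh1l2 (7.75 ± 2.50 FPKM), which had lain well below Mthfd1 with vehicle, were then near its 10.8 ± 3.17 FPKM. The order depends on the length used, since with the longest transcript in place of the joined exons Mthfd2 (34.9 FPKM) lay above Phgdh (31.4 FPKM) in the vehicle group.

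The mitochondrial and cytosolic arms were then compared within each library, where library size cancels. The summed FPKM of the 4 mitochondrial genes was 40.8, 49.5 and 47.0 with vehicle and 104.9, 95.8 and 69.8 with PSB-KD107. The sum of the 2 cytosolic genes was 13.0, 12.0 and 12.4 with vehicle and 15.6, 12.7 and 8.57 with PSB-KD107. The first sum was higher in all treated libraries, while the second was above all vehicle libraries in PSB-KD107 library 1 and below them in library 4. Their ratio was 3.14, 4.12 and 3.80 with vehicle and 6.71, 7.54 and 8.14 with PSB-KD107, with means of 3.69 ± 0.502 and 7.46 ± 0.717. The ratio did not overlap between the groups, and library 4, low in both arms among the treated libraries, had the highest ratio. The mean log2 CPM of the mitochondrial genes minus that of the cytosolic genes was 0.91, 1.16 and 0.95 with vehicle and 2.01, 2.10 and 2.31 with PSB-KD107, a difference of 1.14 between the groups and of 1.05 without library 4.

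**Figure D3:**
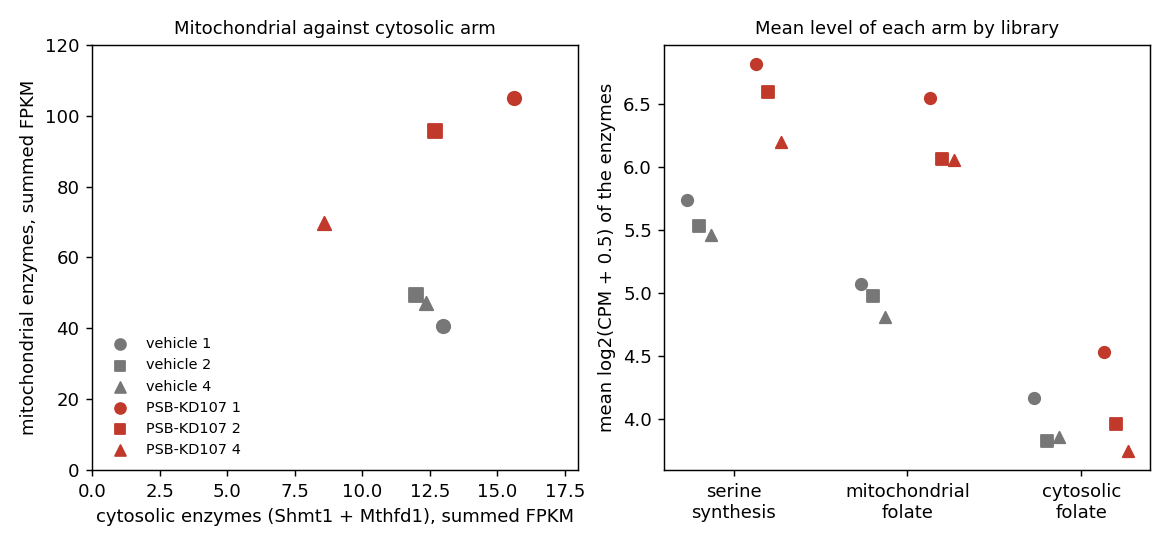
Left, summed FPKM of the mitochondrial (y axis) against the cytosolic folate genes (x axis), and right, mean log2(CPM + 0.5) of the serine synthesis, mitochondrial and cytosolic genes, with 1 point for each of the 6 libraries, vehicle in grey and PSB-KD107 in red. The mitochondrial sum lies between 40.8 and 49.5 FPKM with vehicle and between 69.8 and 104.9 FPKM with PSB-KD107, while the cytosolic sums lie between 8.57 and 15.6 FPKM in all libraries.

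The paired reactions were also compared 1 by 1, and whether they differed from each other was not tested. For serine hydroxymethyltransferase, the ratio of Shmt2 to Shmt1 in FPKM was 12.7, 21.6 and 22.2 with vehicle and 17.7, 28.4 and 18.9 with PSB-KD107, and the groups overlapped. For the dehydrogenase step, the ratio of Mthfd2 to Mthfd1 was 1.29, 2.28 and 1.96 with vehicle and 3.31, 4.64 and 3.71 with PSB-KD107, with no overlap. The ratio of Mthfd2 to its mitochondrial paralogue Mthfd2l was 5.11, 7.69 and 6.19 with vehicle and 16.6, 14.3 and 13.5 with PSB-KD107. Mthfd2l itself had means of 21.8 and 18.8 CPM and a log2 fold change of -0.22 ± 0.25, which was 0.059 on libraries 1 and 2 alone.

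Other genes of folate, glycine, methionine and nucleotide metabolism were read from lists of 78 genes in the table, chosen with earlier results of these data known. Of these, 7 had no count in any library and 65 were tested. With PSB-KD107, 35 had a higher and 30 a lower estimate, with a median log2 fold change of 0.04. With edgeR 0 of the 65 passed at an adjusted p of 0.05, as over all genes (0.0%), and 6 stood higher and 1 lower at unadjusted p-values under 0.05, beside 6.47% and 2.93% of all genes. DESeq2 called 4 as higher, Slc1a4, Gcat, Alas1 and Cth, beside 2.46% of all genes. The libraries of 6 genes lay entirely above those of vehicle and those of 6 entirely below, beside 9.2% and 6.59% of all genes.

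In serine and glycine transport and use, a list with 14 tested genes, 9 had a higher estimate, with a median of 0.22. For 4 of the 14, all PSB-KD107 libraries lay above all vehicle libraries, beside 9.2% of all genes. Nothing is read from this count, since the lists were chosen with earlier results known. Slc1a4, a neutral amino acid transporter that carries serine, measured 19.8, 17.96 and 17.7 CPM with vehicle and 57.9, 48.1 and 45.7 CPM with PSB-KD107. The log2 fold change of Slc1a4 was 1.45 ± 0.13, with an adjusted p of 0.0738 in edgeR, where the smallest over all genes was also 0.0738, and of 1.2e-17 in DESeq2. Slc1a5, its close relative that also carries glutamine, measured 21.2, 14.2 and 12.4 CPM with vehicle and 40.1, 22.1 and 29.7 CPM with PSB-KD107 (edgeR adjusted p = 0.414, DESeq2 adjusted p = 0.0937). Gcat, which makes glycine from threonine breakdown, went from 3.09 ± 0.601 to 7.34 ± 0.828 CPM, and Alas1, which uses glycine for haem synthesis, from 86.9 ± 1.96 to 109.6 ± 6.17 CPM. For these, DESeq2 gave adjusted p-values of 1.1e-04 and 0.0140, and edgeR 0.206 and 0.299. Tdh, the enzyme before Gcat in threonine breakdown, had 0 counts in every library. Sfxn1, a carrier of serine into the mitochondrion, had a log2 fold change of 1.08 ± 0.63, which was 0.66 without PSB-KD107 library 1 and 1.93 without vehicle library 1, and its libraries overlapped between groups.

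Of the 16 tested other folate enzymes and carriers, 8 had a higher and 8 a lower estimate, and 0 reached an unadjusted p under 0.05 in edgeR or an adjusted p under 0.05 in DESeq2. Slc25a32, the mitochondrial folate carrier, measured 9.62, 10.3 and 10.6 CPM with vehicle and 10.2, 10.2 and 10.0 CPM with PSB-KD107. These 6 values were nearly equal, with a log2 fold change of 0.00 ± 0.14. The cytosolic formyltetrahydrofolate dehydrogenase gene Aldh1l1, the counterpart of Aldh1l2, was close to the floor of 3 counts, at 0.0310 to 0.286 CPM with vehicle and 0.165 to 0.321 CPM with PSB-KD107. Tyms, which makes thymidylate, had a log2 fold change of -0.21 ± 0.38, which became 0.23 without vehicle library 1. It was highest in vehicle library 1, at 6.79 CPM, the library that was also highest for proliferation markers, and the part of the latter was not tested. In the glycine cleavage system, which breaks glycine down in the mitochondrion, 3 of 7 genes had a higher estimate, and the median was -0.02.

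In the methionine cycle and transsulfuration, 6 of 12 tested genes had a higher estimate. Cth, which makes cysteine from cystathionine, measured 2.09, 1.03 and 1.55 CPM with vehicle and 14.7, 2.86 and 5.75 CPM with PSB-KD107. The groups did not overlap, but the treated libraries differed about 5-fold among themselves, and the log2 fold change was 2.32 ± 0.65 (edgeR adjusted p = 0.365, DESeq2 adjusted p = 0.0183), or 1.45 without PSB-KD107 library 1. Cbs, the enzyme before it, was at 0 to 0.0321 CPM and was not tested. Mtr, which uses methylated folate to make methionine, measured 82.2, 66.3 and 77.6 CPM with vehicle and 58.4, 52.4 and 61.7 CPM with PSB-KD107, with a log2 fold change of -0.39 ± 0.12 and an adjusted p of 0.410 in edgeR. Mat2a, which makes S-adenosylmethionine, had means of 435.8 and 410.2 CPM. Of the 18 genes of purine and thymidylate synthesis, 9 had a higher and 9 a lower estimate, with a median of 0.00. Adssl1, the muscle adenylosuccinate synthase, was the one with an unadjusted p under 0.05, and its log2 fold change of 1.10 ± 0.41 went to 0.66 without PSB-KD107 library 4, where it measured 298.8 CPM.

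**Figure D4:**
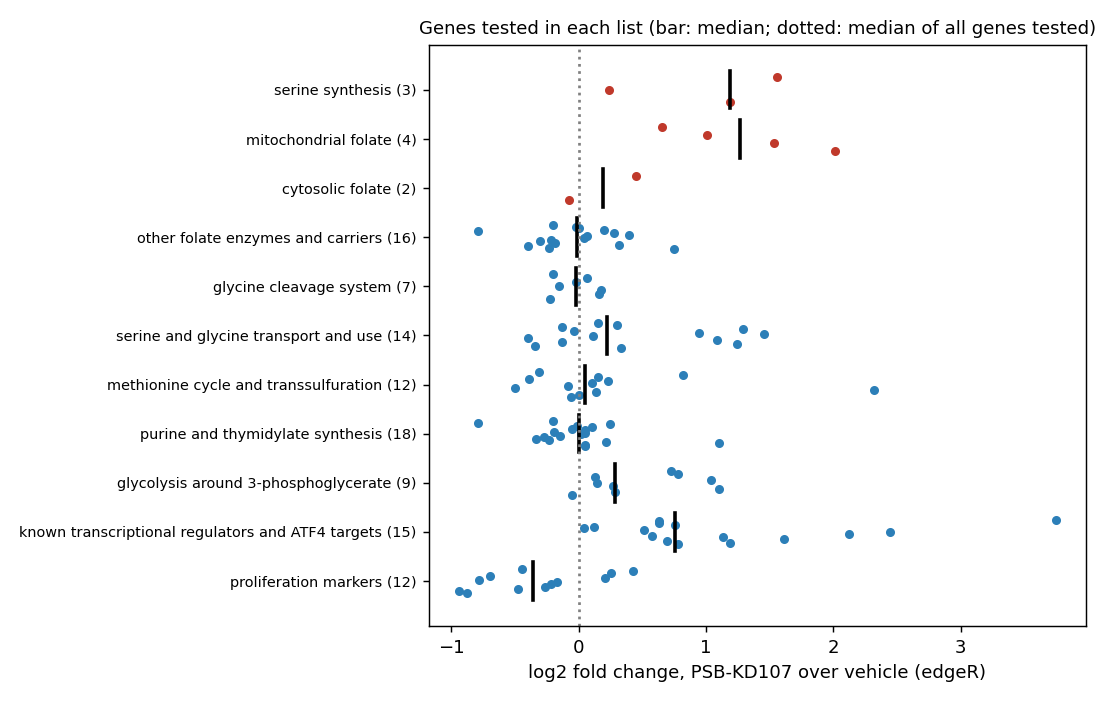
Log2 fold change of PSB-KD107 against vehicle for every tested gene of each list (points, edgeR), with the list median as a bar, the number tested in brackets and the median of all genes as a dotted line. The medians are 1.27 for the mitochondrial folate genes, 0.76 for regulators and Atf4 targets, 0.22 for serine and glycine transport and use, and between -0.02 and 0.05 for other folate enzymes, glycine cleavage, methionine and nucleotide synthesis.

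Known regulators of these genes and Atf4 targets formed a list of 15, also chosen with earlier results known and so no independent evidence of its direction. All 15 had a higher estimate with PSB-KD107, 12 at an unadjusted p under 0.05 in edgeR (6.47% of all genes) and 8 by DESeq2 after adjustment (2.46% of all genes), with a median log2 fold change of 0.76, or 0.88 without library 4. Atf4 measured 218.3, 241.5 and 254.2 CPM with vehicle and 451.2, 427.5 and 276.5 CPM with PSB-KD107, with library 4 just above the vehicle libraries. The log2 fold change of Atf4 was 0.69 ± 0.20 (edgeR adjusted p = 0.379, DESeq2 adjusted p = 0.0617). Trib3, an inhibitor of Atf4 that Atf4 itself induces, went from 3.17 to 42.6 CPM, and the stress factor Ddit3 from 10.8 to 58.8 CPM, and in both library 4 was close to library 2. Atf5 went from 61.2 to 186.9 CPM, Chac1 from 6.39 to 27.9 CPM and Cebpb from 18.5 to 40.6 CPM. Myc measured 13.8, 14.2 and 14.2 CPM with vehicle and 23.9, 20.1 and 27.3 CPM with PSB-KD107, and Nfe2l2 had means of 88.3 and 136.5 CPM. These 2 were highest in library 4 within the treated group, in contrast to Atf4, which was lowest there.

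The genes most like the serine synthesis mean across the 6 libraries were Pcyt1a (Pearson r = 0.999), Acss2 (0.999), Slc20a1 (0.998), Gm13502 (0.997) and Lamtor1 (0.997). For the mitochondrial folate mean they were Tomm5 (0.997), Armc2 (0.992), Tpi-rs11 (0.992), Atp6v1d (0.991) and Slc1a4 (0.991). These correlations describe 6 libraries of different depth from 2 groups that differ in treatment, and were picked as the highest of all tested non-member genes. They do not separate a shared difference between the groups from a likeness within each group.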

How the data were processed

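Muscle stem cells of mdx mice, treated with vehicle or PSB-KD107, were measured by RNA-seq of polyadenylated RNA in 3 libraries per group. The authors aligned the reads with STAR to mm10 and deposited raw counts per gene. The counting program, its annotation and its strand setting are not given in the sources used here.

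Counts were filtered with the default of filterByExpr, scaled by TMM and compared with edgeR 4.0.16 (quasi-likelihood test, R 4.3.3), with Benjamini-Hochberg adjustment over 14165 genes and a threshold of 0.05. No covariate was used. SE was the log2 fold change divided by the square root of F. Gene lengths came from GENCODE M21, which had an entry for 46574 of the 47069 genes. Log2 CPM used an offset of 0.5. Depth set a floor of 3 counts, 0.0596 to 0.0962 CPM, covering counting error only. The scripts were tested on simulated data.

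The members and the lists were chosen with earlier results of these data known. Genes named were the members, for each list those at an unadjusted p under 0.05 (at most 5, by p), 12 genes fixed by name, and the 5 non-member genes most like each group of members. Eno2 and Pkm, of the glycolysis list, appear in the closing section. Among the genes that this rule covers, 1 is not reported here. Library numbers 1 and 2 match the sample records, while those numbered 4 were assigned to their group only. Libraries 1 and 2 tracked by number between the groups and those numbered 4 did not. Whether the numbers pair the libraries was thus not settled, and the main fit used no pairing. Alternatives were DESeq2 1.42.0, RLE factors, no filter or an FPKM filter, a replicate block, each library left out and transcript length.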

Additional observations from a re-analysis of the deposited data

How the results depend on the processing

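The 9 genes kept the sign of their log2 fold change in 113 of 117 combinations of gene and alternative. Psat1 ranged from -0.013 without PSB-KD107 replicate 1 to 0.51, and Mthfd1 from -0.28 to 0.14 on leaving out a library. Mthfd1 was also at 0.15 on libraries 1 and 2 with no block, an alternative chosen after seeing the data, and at 0.15 on them with the replicate block. On leaving out single libraries, the median log2 fold change lay between 1.03 and 1.34 for serine synthesis. It lay between 1.15 and 1.31 for the mitochondrial and between -0.10 and 0.35 for the cytosolic folate genes. The mitochondrial minus cytosolic difference was here taken between means of edgeR log2 fold changes, not of log2 CPM. It was 1.11 with all 6 libraries and between 1.03 and 1.22 on leaving out single libraries. The lowest cytosolic median came without PSB-KD107 replicate 1. Single genes ranged from 0.46 to 0.80 (Shmt2), 0.77 to 1.24 (Mthfd2), 1.36 to 1.82 (Mthfd1l) and 1.71 to 2.31 (Aldh1l2).

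edgeR called 0 of 14165 genes, and 0 with any library left out. DESeq2 called 482 genes and no filter on low counts 8. Of the related genes, edgeR called 0, DESeq2 4 and no filter 1. With the replicate block on libraries 1 and 2, which leaves 1 residual degree of freedom, 2456 genes and 16 related genes were called, whereas the same 4 libraries with no block and a block over all 6 by number gave 0. Deviations from the group means correlated at 0.63, 0.57 and -0.13 for the same-numbered libraries 1, 2 and 4. Vehicle 1 with PSB-KD107 2 gave -0.71, and vehicle 2 with PSB-KD107 1 gave -0.55. Vehicle 4 correlated best with PSB-KD107 2 (0.66). Whether same-numbered libraries share a mouse is therefore not settled. For 24 named related genes, 262 of 308 combinations kept direction and side of the threshold, 33 passed it and 13 turned the sign of a value within its SE of 0. Leaving out single libraries gave -0.46 to 0.23 for Tyms, -0.041 to 0.030 for Slc25a32 and -0.17 to 0.0031 for Mat2a. Slc25a32 was -0.011 with DESeq2, -0.012 with RLE factors, -0.0012 with the FPKM filter and -0.0069 with no filter. On libraries 1 and 2, Mthfd2l was 0.059 and Mat2a 0.011 with no block, and 0.041 and 0.012 with the replicate block. With the longest transcript, vehicle levels were 31.4 (Phgdh), 68.0 (Psat1), 3.45 (Psph), 26.7 (Shmt2), 34.9 (Mthfd2), 1.5 (Shmt1) and 15.6 FPKM (Mthfd1). The causes were not tested. Few counts lay behind Cbs (0 to 1 per library) and Aldh1l1 (1 to 16).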

Other observations

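Glycolysis around 3-phosphoglycerate, the point where serine synthesis branches off, was measured in 9 genes, of which 8 had a higher estimate with PSB-KD107, with a median log2 fold change of 0.29. Pgam1, which draws 3-phosphoglycerate onward to pyruvate, measured 67.4, 46.0 and 45.6 CPM with vehicle and 109.5, 69.2 and 147.5 CPM with PSB-KD107, with all treated libraries above all vehicle libraries (edgeR adjusted p = 0.388). Pkm, the last enzyme of glycolysis, measured 2146, 1515 and 1410 CPM with vehicle and 2802, 1977 and 3591 CPM with PSB-KD107, with overlap between the groups, and was highest in PSB-KD107 library 4, as was Pgam1. Eno2, another glycolytic enzyme, measured 3.78, 5.30 and 6.14 CPM with vehicle and 11.9, 15.1 and 5.70 CPM with PSB-KD107, so that its library 4 lay within the vehicle range. The log2 fold change of Eno2 was 1.10 ± 0.40, and 1.41 without that library.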
